A study of Mus musculus with 22 samples.

Results

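Metallothioneins and the zinc transporters around them were described in whole kidney RNA of 22 mice treated with cisplatin, with KW6002, with both, or with neither. The group holds 8 of the 32858 genes in the count table. These are the metallothioneins Mt1 and Mt2, the metal-sensing transcription factor Mtf1, the zinc exporters Slc30a1 and Slc30a2, and the zinc importers Slc39a5, Slc39a8, and Slc39a14. The 8 genes were chosen from their levels in these same libraries, so their differences between groups are given as a description, without a test. All 8 passed the filter on low counts.

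By the study's methods the mice were male C57Bl6/J animals of 8 to 10 weeks in a subchronic dosing model. Vehicle-treated mice (n = 5) received no drug. KW6002-treated mice (n = 6) received istradefylline, an adenosine receptor antagonist, daily between day -5 and day 7 at a dose of 3 mg/kg. Cisplatin-treated mice (n = 5) received the platinum drug at 3 mg/kg in 6 injections, the first on day 0. Co-treated mice (n = 6) received cisplatin plus KW6002 on the same schedules, and kidneys were taken 72 hours after the last cisplatin injection. Each kidney gave 1 library, and whole kidney RNA cannot tell fewer cells of a type from less RNA per cell.

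Metallothioneins are small cysteine-rich proteins that bind zinc, copper, and cadmium. The transcription factor MTF-1, encoded by Mtf1, senses free zinc through its zinc fingers and binds metal response elements near the start of its target genes, with Mt1, Mt2, and Slc30a1 among the classic targets. SLC30 proteins move zinc out of the cytosol and SLC39 proteins move it in, and in the kidney the proximal tubule takes up filtered metals and metallothionein from the urine.

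Mt1 and Mt2 lie beside each other on the plus strand of chromosome 8 in build mm10, Mt2 at 94172664 to 94173568 and Mt1 at 94179082 to 94180327, with 5513 bases and no annotated gene between them. Windows are shown for Mt1, Mt2, and Slc30a1, which were named above among the classic MTF-1 targets. They run from 250 bases before to 50 bases after the RefSeq start of transcription. For Mt1 and Mt2 that start is not the gene start given above, which comes from GENCODE. Both strands were searched for the core of the metal response element, TGCACNC or TGCGCNC, and the capitals mark every match (RefSeq windows of 300 bases, GRCm38.p6, 5′ to 3′ on the plus strand).
Mt1, chr8:94178839-94179138: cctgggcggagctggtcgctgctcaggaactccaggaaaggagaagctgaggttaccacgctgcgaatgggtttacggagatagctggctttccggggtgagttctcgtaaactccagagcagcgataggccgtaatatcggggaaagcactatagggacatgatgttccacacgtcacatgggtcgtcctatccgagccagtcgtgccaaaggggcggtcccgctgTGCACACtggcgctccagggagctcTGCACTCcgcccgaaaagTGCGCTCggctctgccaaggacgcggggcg
Mt2, chr8:94172368-94172667: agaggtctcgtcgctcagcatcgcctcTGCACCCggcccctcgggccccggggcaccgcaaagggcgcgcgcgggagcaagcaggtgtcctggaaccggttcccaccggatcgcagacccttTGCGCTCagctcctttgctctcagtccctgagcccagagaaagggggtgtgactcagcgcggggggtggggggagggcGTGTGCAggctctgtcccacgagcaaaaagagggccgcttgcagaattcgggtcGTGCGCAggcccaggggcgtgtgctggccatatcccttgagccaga
Slc30a1, chr1:191906531-191906830: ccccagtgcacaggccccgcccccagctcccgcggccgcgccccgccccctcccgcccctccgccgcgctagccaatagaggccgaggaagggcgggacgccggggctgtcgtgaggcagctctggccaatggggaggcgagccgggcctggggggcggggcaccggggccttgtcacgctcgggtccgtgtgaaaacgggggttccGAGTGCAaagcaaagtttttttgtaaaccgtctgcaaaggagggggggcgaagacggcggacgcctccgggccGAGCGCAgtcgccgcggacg
The Mt1 window held 3 matches, all in the sense orientation, at positions 228, 253, and 271 of the window counted from its 5′ end. The Mt2 window held 4 matches, in the sense orientation at positions 28 and 123 and in the antisense orientation at positions 201 and 255. Slc30a1 held 2 antisense matches, at positions 208 and 281. Of all 32851 windows of this length, 25.7% held at least 1 match and 0.517% held at least 4. Slc30a2 held 2 matches, 1 of 2 windows of Slc39a5 and 1 of 2 windows of Slc39a8 held 1 match, and Mtf1 held 0. In all, 7 of the 8 members had a window. A match describes the letters and does not show that a protein binds there.

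Libraries held 26471762 to 40510754 counts, and 17131 genes had enough counts to be tested. The tissue was checked by 9 proximal tubule markers, none of which was at 0 in any group. Their summed level was 16972 to 18193 CPM (read counts relative to library size, scaled by TMM factors) in vehicle-treated, 16556 to 18103 in KW6002-treated, 2744 to 4225 in cisplatin-treated, and 7340 to 10911 in co-treated kidneys. The 2 tubular injury markers, Havcr1 and Lcn2, summed to 5.29 to 7.02 CPM in vehicle-treated, 1126 to 2136 in cisplatin-treated, and 299 to 653 in co-treated kidneys. Numbers in the sample labels split the control mice into a 300s series (3 vehicle and 3 KW6002) and a 500s series (2 vehicle and 3 KW6002). All cisplatin-treated and co-treated mice carried numbers in the 500s. What the series stand for is not stated.

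Mt1 encodes the first of the 2 inducible kidney metallothioneins. In vehicle-treated kidneys its level was 44.6, 53.0, 57.4, 60.2, and 61.2 CPM. In cisplatin-treated kidneys it was 599.8, 772, 800.4, 828.6, and 902 CPM. The 2 ranges lay far apart, and the mean was 781 ± 112 CPM with cisplatin against 55.3 ± 6.78 with vehicle (SD, n = 5 each), a log2 fold change of 3.82 (SE 0.21) or 14.1-fold. Co-treated kidneys ran from 238 to 382 CPM with a median of 323, so that every co-treated kidney lay below every cisplatin-treated one and above every vehicle-treated one. The co-treated mean of 310 ± 56.7 CPM (SD, n = 6) was 2.52-fold below cisplatin alone, a log2 fold change of -1.33 (SE 0.18), and 5.62-fold above vehicle, a log2 fold change of 2.49 (SE 0.20).

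Mt2, the neighbour of Mt1, showed the largest log2 fold change of the 8 genes with cisplatin. Its level was 16.5, 24.1, 26.8, 27.4, and 27.99 CPM in vehicle-treated kidneys and 489, 560.5, 561, 606, and 671 CPM in cisplatin-treated kidneys. The means were 24.6 ± 4.74 and 578 ± 66.9 CPM (SD, n = 5 each), which gave a log2 fold change of 4.56 (SE 0.33) or 23.5-fold. In co-treated kidneys Mt2 ran from 181 to 334 CPM with a median of 252. These values again fell between the cisplatin and vehicle groups without overlap, with a log2 fold change of -1.17 (SE 0.27) against cisplatin and 3.39 (SE 0.31) against vehicle. An annotated antisense gene, Gm45774, overlaps Mt2, and since the strand setting of the counting is not given in the sources used here, reads of the pair cannot be told apart.

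**Figure D1:**
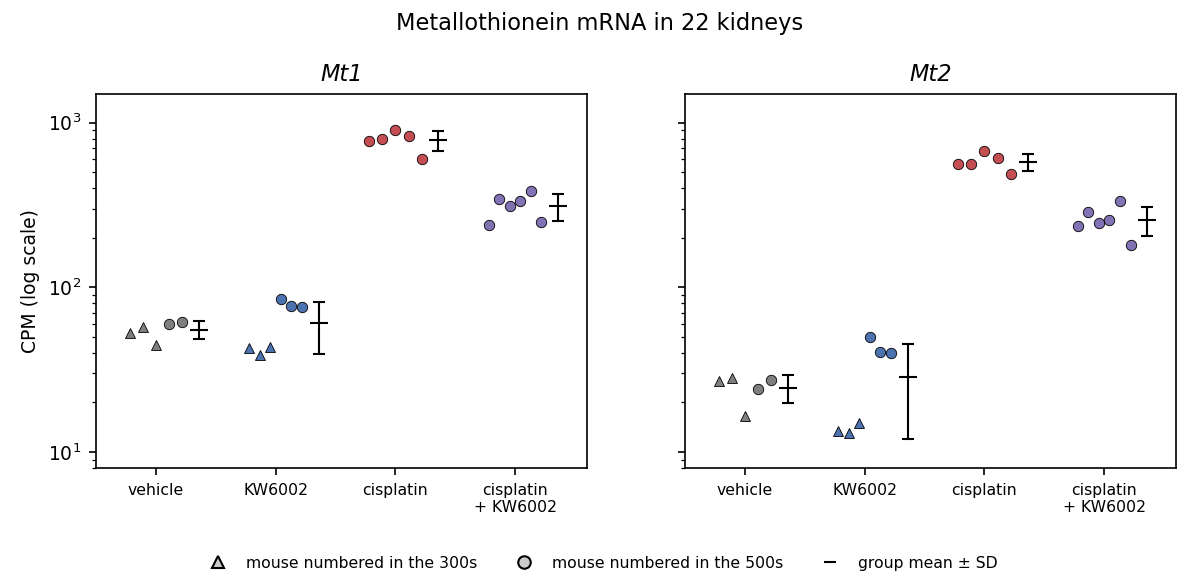
CPM of Mt1 (left) and Mt2 (right) in each kidney on a log axis, by group, with triangles for mice numbered in the 300s, circles for mice numbered in the 500s, and bars for the group mean ± SD. Cisplatin-treated kidneys lie highest, at 599.8 to 902 CPM for Mt1 and 489 to 671 CPM for Mt2, co-treated kidneys lie between them and the controls, and the KW6002 group splits by label series.

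Mt1 and Mt2 together took 0.00572% to 0.00821% of all counts in vehicle-treated kidneys, 0.117% to 0.172% in cisplatin-treated kidneys, and 0.0432% to 0.0755% in co-treated kidneys. The balance between the 2 genes differed too. In vehicle-treated kidneys Mt1 had 1.97, 2.05, 2.24, 2.49, and 2.70 counts for each Mt2 count, and in cisplatin-treated kidneys 1.23, 1.34, 1.37, 1.38, and 1.43. The ranges did not overlap, and the mean ratio was 2.29 ± 0.30 in the vehicle group and 1.35 ± 0.08 in the cisplatin group (SD, n = 5 each). Co-treated kidneys ran from 1.02 to 1.38 with a median of 1.23 and overlapped the cisplatin group, although their metallothionein levels did not. In KW6002-treated kidneys the ratio split by label series, at 2.87, 2.97, and 3.20 in the 300s and at 1.70, 1.89, and 1.91 in the 500s, the latter below every vehicle-treated kidney. Among KW6002-treated kidneys the ratio thus moved with the label series, and all cisplatin-treated and co-treated mice were of the 500s series. The 2 vehicle-treated kidneys of that series had ratios of 2.24 and 2.49. These lay between the lowest and highest vehicle-treated kidneys of the 300s series, at 1.97 and 2.70. The ratio is a description of the same counts and was not tested.

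**Figure D2:**
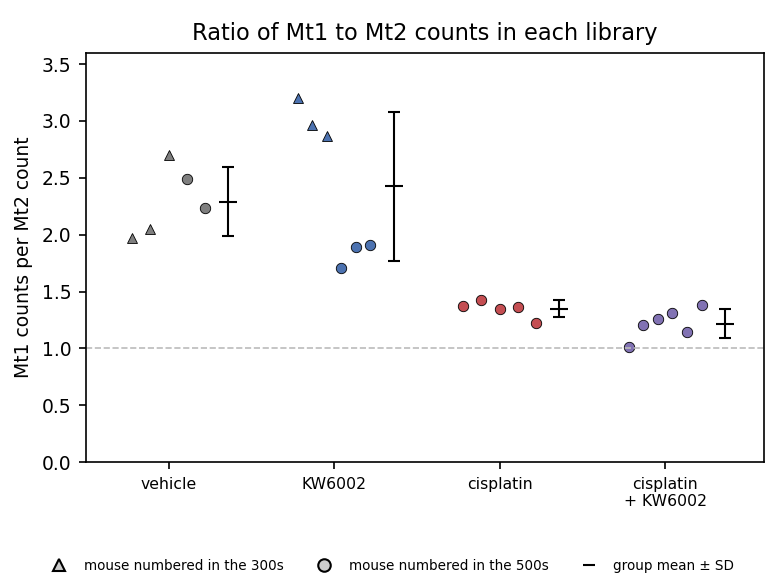
Mt1 counts divided by Mt2 counts in each library, by group, with triangles and circles for the 2 label series, bars for the mean ± SD, and a dashed line at 1. All 11 libraries with cisplatin lie at or below 1.43, and all 11 libraries without it lie at or above 1.70.

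With KW6002 alone the metallothioneins followed the label series. Mt1 in KW6002-treated kidneys ran from 38.6 to 84.6 CPM, and the 3 mice of the 300s series lay at 38.6, 43.0, and 43.4 CPM while the 3 of the 500s series lay at 76.4, 77.0, and 84.6 CPM. Against vehicle of the same series the means were 41.7 ± 2.67 against 51.6 ± 6.52 CPM in the 300s (SD, n = 3 each) and 79.3 ± 4.55 (n = 3) against 60.7 ± 0.77 CPM (n = 2) in the 500s. The direction thus differed between the series, with no overlap within either. Mt2 did the same, at 13.9 ± 1.11 against 23.8 ± 6.33 CPM in the 300s (n = 3 each) and 43.5 ± 5.36 (n = 3) against 25.7 ± 2.29 CPM (n = 2) in the 500s. Pooled over the series, the log2 fold changes against vehicle were 0.13 (SE 0.18) for Mt1 and 0.21 (SE 0.29) for Mt2, both smaller than their standard errors. With the label series as a covariate, cisplatin against vehicle gave 3.44 (SE 0.18) for Mt1 and 3.92 (SE 0.29) for Mt2. Co-treatment against vehicle then gave 2.11 (SE 0.17) for Mt1 and 2.75 (SE 0.28) for Mt2. Both Mt2 values were lower than those without the covariate, 4.56 for cisplatin and 3.39 for co-treatment, by more than 1.5 times in fold. The covariate fits 1 shift between the series for all groups, although vehicle and KW6002 kidneys did not differ alike between them. Within the 500s series mean Mt1 was 781 CPM with cisplatin against 60.7 with vehicle. Mean Mt2 there was 578 against 25.7 CPM.

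Mtf1, at 124802104 to 124849800 on the plus strand of chromosome 4, encodes the factor that drives metallothionein genes when zinc is high. Its level was 24.5 to 28.2 CPM in vehicle-treated, 23.9 to 28.8 in KW6002-treated, 25.5 to 29.9 in cisplatin-treated, and 26.3 to 30.6 CPM in co-treated kidneys. All 4 ranges overlapped, and the log2 fold changes were 0.07 (SE 0.06) for cisplatin against vehicle and 0.02 (SE 0.06) for co-treatment against cisplatin. Scaling by library size alone moved the median of all genes by 0.20 on the log2 scale between cisplatin and vehicle, and Mtf1 then stood at 0.29 (SE 0.07). An rRNA gene and 1110065P20Rik overlap Mtf1.

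Slc30a1 encodes ZnT1, the exporter of the plasma membrane. Its level was 82.4, 83.7, 90.8, 90.98, and 95.8 CPM in vehicle-treated kidneys and 102.6, 102.8, 107, 110.4, and 112 CPM in cisplatin-treated kidneys. The groups did not overlap, but the step was small, from 88.7 ± 5.61 to 107 ± 4.32 CPM (SD, n = 5 each), a log2 fold change of 0.27 (SE 0.06) or 1.21-fold, and of 0.49 (SE 0.06) when scaled by library size alone. Co-treated kidneys ran from 107 to 139.6 CPM with a median of 125 and overlapped the cisplatin group. Their mean of 124 ± 12.4 CPM (SD, n = 6) was the highest of the 4 groups, with a log2 fold change of 0.48 (SE 0.06) against vehicle and 0.21 (SE 0.06) against cisplatin. Unlike Mt1 and Mt2, Slc30a1 was therefore not lower in co-treated than in cisplatin-treated kidneys. KW6002 without cisplatin gave 90.4 to 101.4 CPM and overlapped vehicle, with a log2 fold change of 0.13 (SE 0.06) against it. An antisense gene, 1700034H15Rik, overlaps Slc30a1.

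Slc30a2 encodes ZnT2, which loads zinc into intracellular vesicles. Its level was 91.8, 99.03, 102.9, 103.4, and 109 CPM in vehicle-treated kidneys and 87.2, 94.6, 97.1, 97.6, and 108.4 CPM in cisplatin-treated kidneys. These ranges overlapped, with a log2 fold change of -0.06 (SE 0.12), which turned to 0.15 (SE 0.12) when scaled by library size alone. Co-treated kidneys had 34.8 to 55.5 CPM with a median of 44.3 and lay below every kidney of the other 3 groups. The log2 fold change was -1.11 (SE 0.12) against cisplatin and -1.17 (SE 0.12) against vehicle, 2.16-fold and 2.25-fold lower. KW6002 without cisplatin gave 82.9 to 120.1 CPM and overlapped vehicle, and the KW6002 effect on the log2 scale was lower in the presence of cisplatin than in its absence by a difference of -1.09 (SE 0.17). Among the members Slc30a2 alone was close to the vehicle level with cisplatin and away from it with co-treatment.

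Slc39a5 encodes ZIP5, a zinc importer of the basolateral membrane in other epithelia. Its level was 45.2, 49.0, 50.6, 59.35, and 59.36 CPM in vehicle-treated kidneys and 13.4, 16.1, 16.3, 16.5, and 27.8 CPM in cisplatin-treated kidneys. One cisplatin-treated kidney stood well above the other 4 but still below every vehicle-treated kidney. The means were 52.7 ± 6.39 and 18.0 ± 5.60 CPM (SD, n = 5 each), a log2 fold change of -1.55 (SE 0.14) or 2.93-fold lower, and -1.76 without the kidney at 27.8 CPM. Co-treated kidneys ran from 31.5 to 41.4 CPM with a median of 34.7, above all cisplatin-treated and below all vehicle-treated kidneys, with a log2 fold change of 0.98 (SE 0.14) against cisplatin and -0.57 (SE 0.13) against vehicle. KW6002 without cisplatin gave 40.4 to 55.7 CPM and overlapped vehicle, with a log2 fold change of -0.21 (SE 0.13) against it. The gene Ankrd52 overlaps Slc39a5 on the other strand.

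Slc39a8 encodes ZIP8, an importer of zinc, manganese, and cadmium. Its level was 59.1, 69.1, 91.6, 104.6, and 105.5 CPM in vehicle-treated kidneys and 25.0, 27.7, 29.5, 29.9, and 30.4 CPM in cisplatin-treated kidneys. Every cisplatin-treated kidney lay below every vehicle-treated one, with means of 28.5 ± 2.21 and 86.0 ± 21.02 CPM (SD, n = 5 each) and a log2 fold change of -1.59 (SE 0.14) or 3.02-fold lower. Within the 500s series alone it was -1.89 (SE 0.13). Co-treated kidneys ran from 40.97 to 60.4 CPM with a median of 43.8, above all cisplatin-treated kidneys and overlapping the lowest vehicle-treated one, a mouse of the 300s series. The log2 fold change was 0.76 (SE 0.14) against cisplatin and -0.83 (SE 0.13) against vehicle. Against vehicle of the 500s series alone it was -1.12 (SE 0.13). KW6002 without cisplatin gave 81.3 to 104.3 CPM and overlapped vehicle, with a log2 fold change of 0.12 (SE 0.13) against it. Noncoding genes overlap Slc39a8 on both strands.

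Slc39a14 encodes ZIP14, which carries zinc, manganese, and iron. Its level was 51.2, 59.0, 73.8, 94.0, and 106.8 CPM in vehicle-treated kidneys and 117.7, 119.8, 122.7, 131.6, and 134.6 CPM in cisplatin-treated kidneys. The groups did not overlap, at 76.9 ± 23.3 and 125 ± 7.41 CPM (SD, n = 5 each), with a log2 fold change of 0.70 (SE 0.17). The 2 highest vehicle-treated kidneys were the 2 of the 500s series, and against them alone the log2 fold change was 0.32 (SE 0.10), below the 0.70 over both series. KW6002-treated kidneys split in the same way, at 68.4 ± 1.77 CPM in the 300s and 110.4 ± 13.4 CPM in the 500s (SD, n = 3 each). Co-treated kidneys ran from 109.5 to 132.7 CPM with a median of 117 and overlapped the cisplatin group, with a log2 fold change of -0.07 (SE 0.17) against it. Against vehicle it was 0.63 (SE 0.17), and 0.25 (SE 0.09) within the 500s series.

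**Figure D3:**
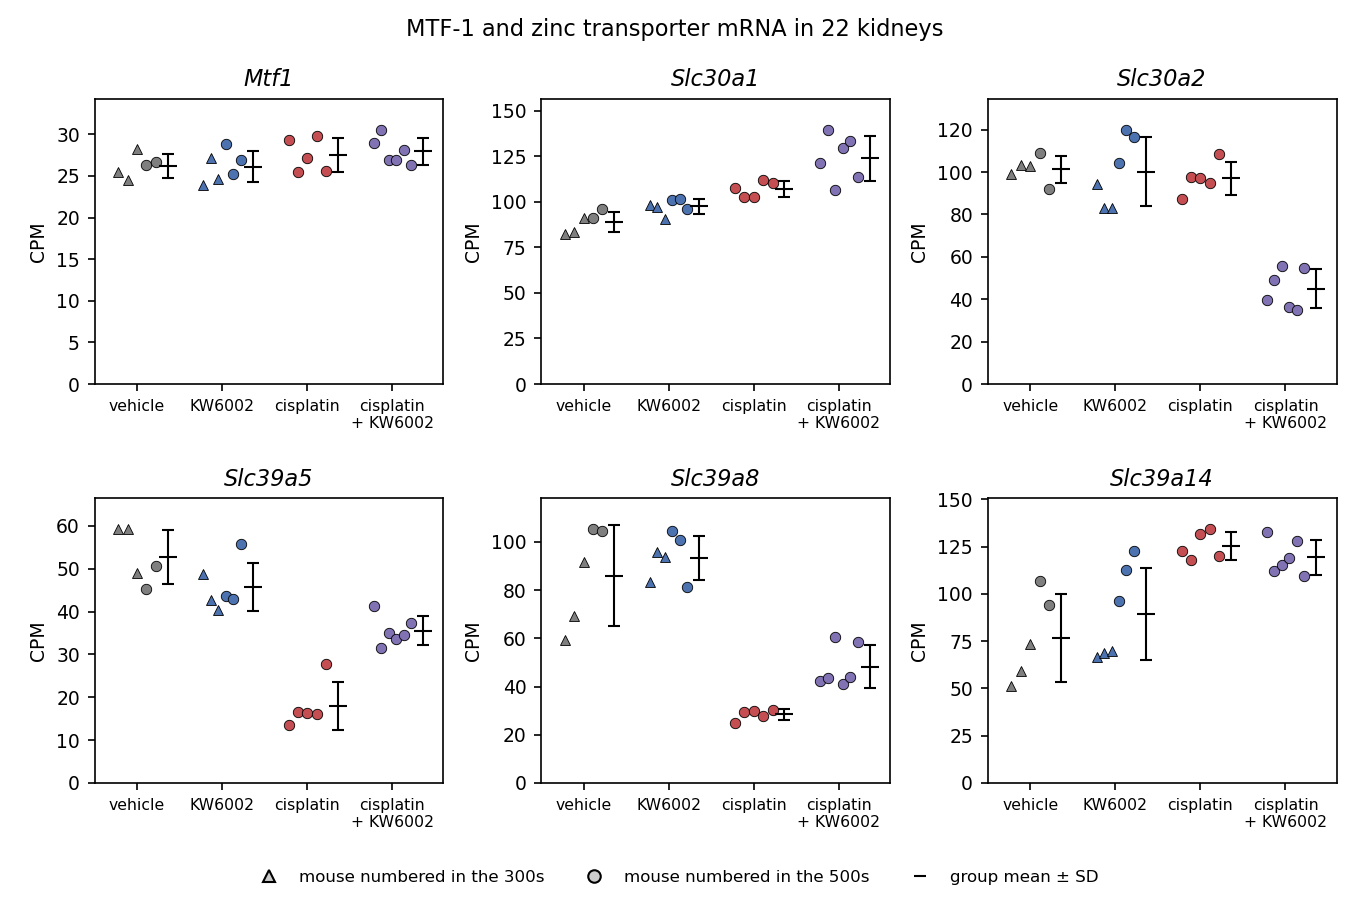
CPM of Mtf1, Slc30a1, Slc30a2, Slc39a5, Slc39a8, and Slc39a14 in each kidney, by group, with triangles and circles for the 2 label series and bars for the mean ± SD, on axes that start at 0. Slc39a5 and Slc39a8 are lowest with cisplatin alone, Slc30a2 is lowest with co-treatment at 34.8 to 55.5 CPM, and Mtf1 overlaps across all 4 groups.

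Over the 8 members, 6 did not overlap between cisplatin and vehicle, 4 higher (Mt1, Mt2, Slc30a1, and Slc39a14) and 2 lower (Slc39a5 and Slc39a8), where 55.3% of all genes tested did not overlap. Between co-treatment and cisplatin 5 members did not overlap, 2 higher (Slc39a5 and Slc39a8) and 3 lower (Mt1, Mt2, and Slc30a2), beside 37.8% of all genes. Between co-treatment and vehicle 6 did not overlap, 4 higher and 2 lower, beside 37.5% of all genes, and between KW6002 and vehicle 0 members did not overlap, beside 1.38% of all genes. Nothing is read from these counts, since the levels chose the members. The median log2 fold change of the members was 0.17 for cisplatin against vehicle, where it was -0.01 over all genes tested, and -0.02 for co-treatment against cisplatin, where it was 0.01 over all genes. The comparisons share their control kidneys, so their values are not independent.

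**Figure D4:**
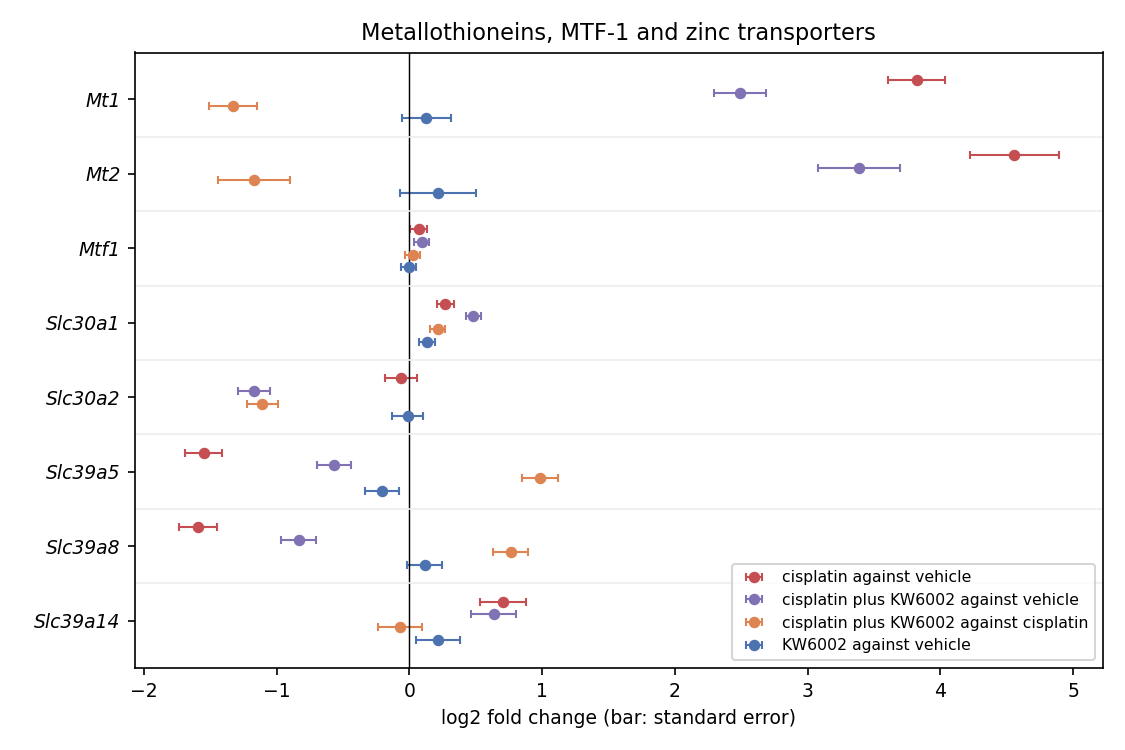
Log2 fold change of each member in 4 comparisons, with bars for the standard error and a line at 0. Mt1 and Mt2 lie farthest right for cisplatin against vehicle, at 3.82 and 4.56, Slc39a5 and Slc39a8 lie at -1.55 and -1.59, and Slc30a2 lies near 0 with cisplatin and at -1.17 for co-treatment against vehicle.

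Levels were compared between members per kilobase of the principal transcript. In vehicle-treated kidneys Mt1 was highest at 100.7 ± 12.4 CPM per kb, followed by Mt2 at 48.1 ± 9.28, Slc30a2 at 32.1 ± 2.01, Slc39a5 at 26.02 ± 3.16, Slc39a8 at 24.3 ± 5.95, Slc30a1 at 16.9 ± 1.07, Slc39a14 at 15.6 ± 4.73, and Mtf1 at 3.44 ± 0.19 (SD, n = 5). Mt1 lay above all others and Mtf1 below all others in each vehicle-treated kidney, while each other pair of neighbours in that order overlapped. With cisplatin the order was Mt1 at 1422 ± 204 CPM per kb and Mt2 at 1131 ± 131, which overlapped, then Slc30a2 at 30.8 ± 2.42, Slc39a14 at 25.4 ± 1.505, Slc30a1 at 20.4 ± 0.82, Slc39a5 at 8.89 ± 2.77, Slc39a8 at 8.06 ± 0.63, and Mtf1 at 3.604 ± 0.27 (SD, n = 5). Of these neighbours Slc39a5 and Slc39a8 overlapped as well. With KW6002 alone the order of the means was Mt1, Mt2, Slc30a2, Slc39a8, Slc39a5, Slc30a1, Slc39a14, and Mtf1, from 110.2 ± 38.1 to 3.42 ± 0.24 CPM per kb (SD, n = 6), and of the neighbours in that order Slc39a5 did not overlap Slc30a1 and Slc39a14 did not overlap Mtf1. In co-treated kidneys Mt1 at 565 ± 103 CPM per kb overlapped Mt2 at 502 ± 101, and Slc39a14 at 24.2 ± 1.86, Slc30a1 at 23.6 ± 2.36, Slc39a5 at 17.6 ± 1.70, Slc30a2 at 14.3 ± 2.95, and Slc39a8 at 13.7 ± 2.47 each overlapped the next, above Mtf1 at 3.66 ± 0.21 (SD, n = 6).

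Several cell type markers moved with these values. All 9 proximal tubule markers fell with cisplatin against vehicle (edgeR quasi-likelihood test, adjusted p below 0.05), as did all 3 of the thick ascending limb and both of the distal convoluted tubule. All 3 podocyte, all 3 T cell, and all 3 B cell markers fell as well, while 2 of 3 collecting duct markers rose and 0 fell, and of 6 macrophage markers 2 rose and 2 fell. Over all genes tested 34.6% rose and 35.9% fell with cisplatin. T cell markers were low, summing to 1.20 to 3.82 CPM in vehicle-treated and 0.13 to 0.48 in cisplatin-treated kidneys. B cell markers were low too, at 0.70 to 2.17 and 0.05 to 0.54 CPM. Of the 9 proximal tubule markers, 7 rose with co-treatment against cisplatin, where 28.6% of all genes tested rose. Fat markers summed to 50.3 to 749 CPM in vehicle-treated, 207 to 429 in cisplatin-treated, and 6.05 to 247 CPM in co-treated kidneys. With co-treatment against cisplatin 4 of the 5 fell, where 27.2% of all genes tested fell. Macrophage markers summed to 155 to 358 CPM in vehicle-treated, 192 to 266 in cisplatin-treated, and 105 to 181 CPM in co-treated kidneys. In 1 co-treated kidney (replicate 6) the adrenal cortex markers reached 64.4 CPM, where every other kidney had at most 2.70, and without it the co-treated change against cisplatin was -1.09 for Mt2 and -1.18 for Slc30a2. The part that cell makeup plays in the levels of Mt1, Mt2, and the transporters was not tested.

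For each member, the genes with the most similar pattern were those with the smallest root mean square difference in centred log2 CPM over the 22 kidneys, the other members left out. For Mt1 these were Srxn1, which encodes sulfiredoxin, at 0.24 and the p53 target Trp53inp1 at 0.26. Mean Srxn1 stood at 69.1 CPM with vehicle, 68.1 with KW6002, 947 with cisplatin, and 378 with co-treatment. Since Srxn1 was picked for its likeness to Mt1 in these kidneys, a similar order of groups follows from the choice. The genes nearest to Mt2 were farther off, with Aldh1a1, a retinaldehyde dehydrogenase, at 0.42 and Tnfrsf12a, the TWEAK receptor, at 0.50. Mt1 and Mt2 themselves differed by 0.49 on this measure, less than Mt2 and Tnfrsf12a did. Slc39a5 was nearest to Pyroxd2 at 0.16 and Slc36a1 at 0.16, Slc39a8 to Stk32b at 0.17 and the organic anion transporter Slco4c1 at 0.18, and Slc39a14 to Dnajb4 at 0.13 and Rnf169 at 0.15. Slc30a2 was nearest to Rexo5 at 0.20 and Lhpp at 0.27, Slc30a1 to Usp25 and Hipk3 at 0.08 each, and the nearly flat Mtf1 to Cltc and Nup160 at 0.07 each. Mean Rexo5 was 5.41 CPM with vehicle, 4.87 with cisplatin, and 2.21 with co-treatment.

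The other zinc and copper genes were tested, since they were listed by family and function. The list was still drawn up with earlier results of these data known, and it leaves out the members. The list held 33 genes, 28 of which passed the filter on low counts (Mt4, Slc30a3, Slc30a8, Slc30a10, and Slc39a12 did not, with at most 13 counts in any library). With cisplatin against vehicle 23 of 28 changed, 12 higher and 11 lower (edgeR quasi-likelihood test, adjusted p below 0.05). Over all 17131 genes tested 70.5% changed, 34.6% higher and 35.9% lower. The median log2 fold change of the 28 genes was 0.12. Among the largest, Gclc, the catalytic subunit of glutamate-cysteine ligase, rose from 272 ± 11.1 to 1507 ± 159 CPM (SD, n = 5 each), a log2 fold change of 2.47 (SE 0.15, adjusted p = 1.86e-12). Atox1, the copper chaperone, rose by 1.27 (SE 0.07, adjusted p = 3.35e-13), and the importer gene Slc39a4 by 1.76 (SE 0.30, adjusted p = 2.06e-05) from a low level of 0.28 ± 0.13 CPM. Mt3, the metallothionein best known from brain, rose by 1.37 (SE 0.37, adjusted p = 0.00203) between 0.37 ± 0.17 and 0.98 ± 0.26 CPM. Of the importer genes, Slc39a11 dropped by 1.53 (SE 0.14, adjusted p = 9.67e-10) and Slc39a2 dropped by 1.94 (SE 0.22, adjusted p = 3.61e-08), the latter at no more than 1.44 CPM.

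The counts by family stand beside 70.5% of all genes tested that changed with cisplatin, 34.6% higher and 35.9% lower. Nothing is read from them in families this small. All 5 other SLC30 genes tested changed with cisplatin, 2 higher and 3 lower. Of the 10 other SLC39 genes 8 changed, 4 in each direction. Of the 8 copper genes 6 changed, 2 higher and 4 lower, and of the 4 genes tied to MTF-1 the 3 genes Gclc, Selenow, and Csrp1 rose. Scaling by library size alone gave 21 changed genes, 14 higher and 7 lower. The call of Atp7b was lost without vehicle replicate 3 or cisplatin replicate 1, 3, or 4 (adjusted p of 0.0522 to 0.0943), and that of Slc30a9 without vehicle replicate 4 or 5 or cisplatin replicate 1, 3, or 4 (adjusted p of 0.0536 to 0.0948). Scaling by library size alone ended the calls of Atp7b (adjusted p = 0.429), Slc30a9 (adjusted p = 0.439), Slc39a9, and Cox17, and added those of Slc39a10 and Atp7a. The call of Atp7b was also lost with only the 2 groups compared (adjusted p = 0.0738) and within the 500s series (adjusted p = 0.111). That of Slc30a9 was also lost without the filter on low counts (adjusted p = 0.0523).

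With co-treatment against cisplatin 22 of the 28 genes changed, 11 in each direction, where 55.8% of all genes tested changed, 28.6% higher and 27.2% lower. Mt3 dropped by 1.98 (SE 0.36, adjusted p = 7.28e-05) to 0.25 ± 0.10 CPM, and Atox1 dropped by 0.74 (SE 0.07, adjusted p = 4.32e-09) from 209 ± 21.9 to 125 ± 7.11 CPM. Slc39a2 rose by 1.04 (SE 0.22, adjusted p = 0.000302). Ndrg1, a stress-responsive gene, rose by 0.88 (SE 0.23, adjusted p = 0.0025), and Atp7b, the copper pump affected in Wilson disease, rose by 0.70 (SE 0.12, adjusted p = 2.89e-05). Slc39a4 dropped by 0.69 (SE 0.26, adjusted p = 0.0258), a call lost without cisplatin replicate 3 or 4 or co-treated replicate 2 or 5, with adjusted p of 0.0506 to 0.0684. Of the smaller changes, the calls of Slc39a9, Slc39a6, Slc30a9, and Cox17 were lost without any 1 of 6, 5, 4, and 1 libraries, with adjusted p up to 0.0848, 0.104, 0.0755, and 0.0534. The libraries concerned were cisplatin replicates 1 to 4 and co-treated replicates 2 to 6. The call of Slc39a9 was also lost with DESeq2 (adjusted p = 0.0518) and, like that of Slc30a9, with scaling by library size alone, and those of Slc39a4, Slc39a6, Slc39a9, and Cox17 were lost without the filter on low counts.

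**Figure D5:**
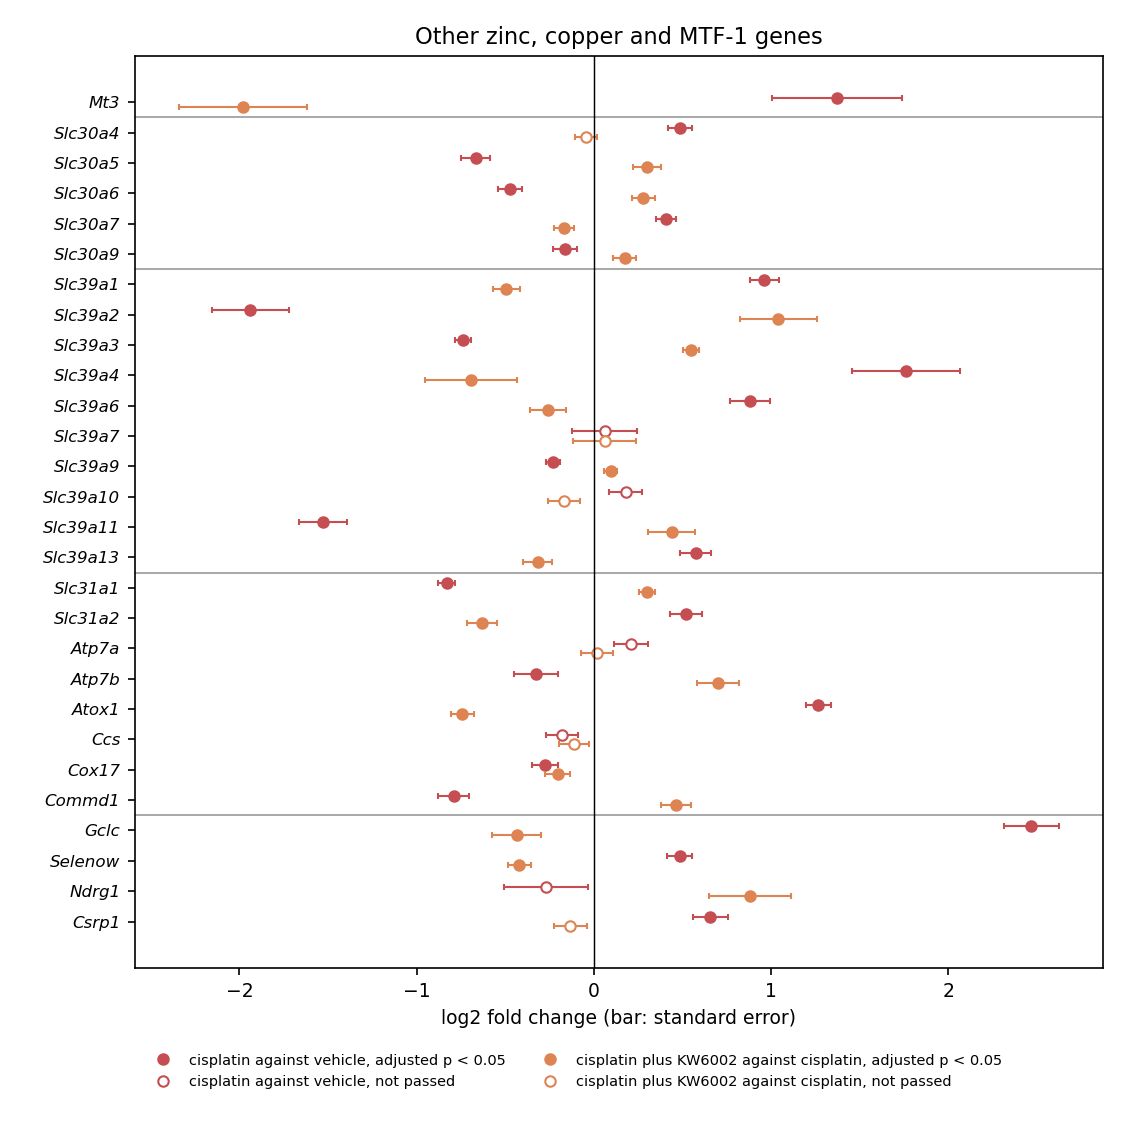
Log2 fold change of the 28 other zinc, copper, and MTF-1 genes for cisplatin against vehicle and for co-treatment against cisplatin, with bars for the standard error, filled points where the adjusted p is below 0.05, and lines between families. Gclc lies farthest right with cisplatin at 2.47, and Mt3 lies farthest left with co-treatment at -1.98. Both comparisons use the same cisplatin-treated kidneys.

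Co-treated kidneys still differed from vehicle in 22 of the 28 genes, 12 higher and 10 lower, where 59.7% of all genes tested changed, 29.8% higher and 29.9% lower. Gclc was higher by 2.04 (SE 0.15, adjusted p = 9.43e-11), Slc39a4 by 1.07 (SE 0.31, adjusted p = 0.00508), Slc39a6 by 0.62 (SE 0.11, adjusted p = 3.19e-05), and Ndrg1 by 0.61 (SE 0.23, adjusted p = 0.0253). Slc39a11 was lower, at a log2 fold change of -1.09 (SE 0.13, adjusted p = 1.75e-07), as was Slc39a2 at -0.90 (SE 0.19, adjusted p = 0.000346). Scaling by library size alone gave 14 higher and 5 lower. The 500s series alone gave 16 changed genes. The call of Slc39a4 was lost there (log2 fold change 0.78, adjusted p = 0.0924), as were those of Slc30a6, Slc39a13, Atp7a, Atp7b, Ccs, and Commd1, and that of Ndrg1 without vehicle replicate 3, 4, or 5 (adjusted p of 0.0588 to 0.0673). That of Atp7a was lost without vehicle replicate 1, 2, or 5 or co-treated replicate 1, 2, 4, or 5 (adjusted p of 0.0590 to 0.109). Scaling by library size alone ended those of Slc30a6, Slc39a3, Slc39a9, Ccs, and Commd1.

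KW6002 without cisplatin changed 0 of the 28 genes by edgeR or DESeq2 at an adjusted p below 0.05, and 3 had an unadjusted p below 0.05 by edgeR. Over all genes tested 0.0175% changed. The effect of KW6002 differed with and without cisplatin in 18 of the 28 genes, 8 toward higher and 10 toward lower with cisplatin, where 42.7% of all genes tested differed, 22.8% toward higher and 19.9% toward lower. The largest difference on the log2 scale was that of Mt3, at -2.63 (SE 0.52, adjusted p = 0.000331). For the members the same difference, which was not tested, was -1.46 (SE 0.26) for Mt1, -1.38 (SE 0.40) for Mt2, 1.19 (SE 0.19) for Slc39a5, 0.65 (SE 0.19) for Slc39a8, -0.29 (SE 0.23) for Slc39a14, 0.08 (SE 0.08) for Slc30a1, and 0.03 (SE 0.08) for Mtf1. Within the 500s series alone the difference moved to -1.92 (SE 0.23) for Mt2 and to 0.90 (SE 0.18) for Slc39a8.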

How the data were processed

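Kidneys of 22 mice were profiled by mRNA sequencing with a stranded kit and single reads of 50 bases, 1 library per mouse. Per the submitters' notes and the paper's methods, the authors mapped reads to mm10 with STAR, kept uniquely aligned reads, and counted them per Ensembl gene with HTSeq 0.6.1p1. The strand setting is not given in the sources used here. The deposited values are raw counts, not normalized by the authors. In the deposited table, 66 unnamed empty columns were not used. Uniquely aligned reads are lost where near-identical copies share sequence, which can lower counts of such genes.

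A single model of all 22 libraries, with 1 mean per group, was fitted in edgeR 4.0.16 (R 4.3.3) after TMM scaling and filterByExpr (10 counts at the median library size in at least 5 libraries). Quasi-likelihood F tests followed, with Benjamini-Hochberg adjusted p-values across 17131 genes. The tested genes held 99.9% of all counts, and the totals of 26471762 to 40510754 counts set the counting error. Standard errors came from the same fit. CPM are TMM-scaled, log2 CPM used a prior count of 2, and lengths, positions, and overlaps came from GENCODE M21. No pair of libraries was identical. Every pair within a group differed by more than sampling noise, with at least 2.88 times the chi-square per gene that counting error gives.

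The 8 members, the 33 other metal handling genes, and the marker lists were chosen with earlier results of these data known. The members were not tested. Of the other genes, the comparisons give values for at most the 6 with the largest change among those that passed, and adjusted p-values for lost calls. The closing section lists every gene whose KW6002 effect differed, which goes beyond that rule. The 2 nearest genes of each member came from genes other than the members averaging 1 or more in log2 CPM. Alternatives were DESeq2 1.42.0, relative log expression factors, scaling by library size alone, omitting the filter, a stricter filter of 10 counts in each library, only the 2 groups compared, a replicate block, the label series as a covariate, only mice numbered in the 500s, a stricter threshold (adjusted p under 0.01 and a log2 change past 1 in size), and each library left out. The edgeR step was tested on simulated data. RefSeq promoter windows of GRCm38.p6 were searched for letters on both strands.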

Additional observations from a re-analysis of the deposited data

Results flagged for a closer look

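Slc39a5 in cisplatin replicate 5 stood at 27.8 CPM, far from the other 4 cisplatin-treated kidneys, which ran from 13.4 to 16.5 CPM. Of 32 groups of a member checked in this way (8 genes in 4 groups), 1 stood out, and chance gives about 1 in 20. The same kidney had the lowest Mt1 (599.8 CPM) and Mt2 (489 CPM) and the highest proximal tubule marker sum of its group.

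For 18 of the 28 other metal handling genes the KW6002 effect differed with and without cisplatin (edgeR quasi-likelihood test of the difference, adjusted p below 0.05). The same held for 42.7% of all genes tested, so the count alone does not set these genes apart. The differences on the log2 scale were -2.63 for Mt3, -1.78 for Slc39a4, -0.77 for Gclc, -0.66 for Slc31a2, -0.66 for Atox1, -0.58 for Slc39a1, -0.40 for Slc39a13, -0.38 for Slc39a6, -0.37 for Selenow, and -0.24 for Slc30a7. In the other direction they were 1.20 for Slc39a2, 0.89 for Ndrg1, 0.55 for Slc39a3, 0.54 for Atp7b, 0.48 for Commd1, 0.45 for Slc30a5, 0.32 for Slc31a1, and 0.27 for Slc30a6. The 2 copper transporter genes Slc31a1 and Slc31a2 thus differed in opposite directions. The calls of Slc39a6 and Ndrg1 were lost in 13 and 5 of the 22 fits that left out a single library, with adjusted p up to 0.0914 and 0.0648. Within the 500s series the calls of Commd1 (0.25, adjusted p = 0.194), Atp7b (0.50, adjusted p = 0.0811), and Slc30a6 (0.31, adjusted p = 0.0592) were lost. That of Slc30a6 was also lost with scaling by library size alone (adjusted p = 0.118), those of Slc30a7 and Slc39a6 without the filter on low counts (adjusted p = 0.0563 and 0.0897), and that of Slc39a6 with the label series as a covariate (adjusted p = 0.0515).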

How the results depend on the processing

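Counts of the other metal handling genes stayed within 1.5 times the reported ones in 45 of 49 alternatives and in all 110 fits without a single library, which gave 21 to 25 genes for cisplatin against vehicle, 18 to 23 for co-treatment against cisplatin, 0 in each fit for KW6002 against vehicle, 20 to 22 for co-treatment against vehicle, and 16 to 19 for the difference. The other 4 were those of the stricter threshold (adjusted p under 0.01 and a log2 change past 1 in size), which asks for more and left 6, 2, 3, and 3 genes where 23, 22, 22, and 18 passed. The median correlation of deviations was 0.00846 over 31 pairs of mice with the same replicate number and -0.00142 over 150 other pairs. Of these, 7 and 12 pairs lay over 0.1, with highest values of 0.405 and 0.337. The main fit did not pair mice by replicate number, and the replicate block gave 23, 21, 0, 22, and 17 genes. For the members, all 880 log2 fold changes without a single library moved by less than 1 SD between replicates. Of 352 under the other alternatives 19 moved by more, and of these the direction turned for Slc30a2, cisplatin against vehicle (0.15 by library size alone), and Slc39a8, KW6002 against vehicle (-0.14 within the 500s series). Of Mt2, KW6002 against vehicle was 0.75 (SE 0.19) within the 500s series, and the cause was not tested. Mt3, Slc39a2, and Slc39a4 stayed at or below 1.44 CPM in every library, which limits their precision.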
